A study of Mus musculus with 4 samples.

Results

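Mature miR-223 and miR-142a, both arms of each hairpin, were taken by name from the miRNA counts of small extracellular vesicles in mouse plasma. These 4 mature miRNAs, mmu-miR-223-3p, mmu-miR-223-5p, mmu-miR-142a-3p and mmu-miR-142a-5p (the species prefix is left off from here on), were part of 530 miRNA names listed in at least 1 library, and each of the 4 was listed in every library. The wild-type mice, on a normal diet, had undergone either myocardial infarction (MI) surgery (2 libraries) or sham surgery (2 libraries), and blood was taken 12 h later. Such vesicles, which cells shed into blood with part of their RNA inside, were separated from blood by differential centrifugation. The labels give neither the age and sex of the mice, nor how the infarction was made, nor whether a library held 1 animal or a pool. Replicates may thus be technical, and a p-value here reflects no more than the scatter between libraries. Unique molecular identifiers (UMIs), random tags added before amplification, let each captured RNA molecule be counted once.

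miRNAs are short RNAs cut from a hairpin precursor. The cut leaves a duplex of a 5p and a 3p strand, one of which is usually retained in an Argonaute protein and guides it to messenger RNAs that pair with its seed. miR-223 is a miRNA of granulocytes and monocytes, where myeloid transcription factors drive it and it restrains granulocyte production and activation in mice. It is also abundant in platelets. miR-142 is made in nearly all blood cell lineages and very little outside them. Plasma mixes vesicles of many cells, so fewer vesicles from a cell type and less of a miRNA in each vesicle cannot be told apart here.

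The mature sequences are shown because the seeds and the overlap of names bear on how the members are told apart. They are given 5′ to 3′ from RefSeq (GRCm38.p6), with the seed, bases 2 to 8, in capitals. miR-142b, an miRNA annotated on the opposite strand of the miR-142a hairpin, is added because its sequence and counts bear on miR-142a.
miR-223-3p: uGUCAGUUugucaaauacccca
miR-223-5p: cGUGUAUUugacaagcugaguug
miR-142a-3p: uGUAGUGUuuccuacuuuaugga
miR-142a-5p: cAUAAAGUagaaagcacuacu
miR-142b: uCCAUAAAguaggaaacacu
The 4 seeds differ, and none of the other names among the 1679 mature miRNAs of the RefSeq table shares one of them.

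The hairpins place both arms in 1 precursor, with the mature arms in capitals.
Mir223: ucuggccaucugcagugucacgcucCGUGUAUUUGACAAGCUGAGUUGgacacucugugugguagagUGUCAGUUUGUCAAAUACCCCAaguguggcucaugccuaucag
Mir142: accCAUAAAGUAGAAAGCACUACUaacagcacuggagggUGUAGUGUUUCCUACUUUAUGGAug
Mir223 lies at chrX:96242817-96242926 on the plus strand, in an exon of F630028O10Rik, which GENCODE M21 (GRCm38) classes as an antisense long non-coding gene. Mir142, the hairpin of miR-142a, lies at chr11:87756864-87756927 on the plus strand, in an intron of the long non-coding gene Mir142hg. Mir142b covers it on the minus strand at chr11:87756841-87756955.

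The MI libraries held 218960 and 135334 miRNA UMIs, and the sham libraries 377031 and 160451. Tables listed a feature only from 10 UMIs on. The 4 members made up 2.08% and 2.44% of miRNA UMIs in the MI libraries, against 3.19% and 2.77% in the sham libraries. The miRNAs of a red cell list were together far more abundant. Of 11 names on the red cell list 10 were listed, each in all 4 libraries, and their sum was 57.4% and 54.7% of miRNA UMIs in the MI libraries, against 48.2% and 46.0% in the sham libraries.

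The 3p arms were the abundant strands of both hairpins, and these 2 arms stood side by side in the order of mean levels. Within a library miR-142a-3p and miR-223-3p ranked 15 and 20 in MI replicate 1, and 13 and 16 in MI replicate 2. In both sham libraries they ranked 13 and 14. miR-142a-3p ranked 14 by its mean of 13066 ± 1643 UMIs per 1e6 miRNA UMIs (CPM, SD over the 4 libraries), and miR-223-3p ranked 15 with 11388 ± 2609 CPM. Their neighbours were the endothelial and platelet miRNA miR-126a-3p above (14231 ± 1748 CPM) and miR-486b-3p, of a red cell hairpin, below (10657 ± 1947 CPM). Each neighbouring pair of these 4 levels had overlapping ranges over the libraries. miR-142a-5p ranked 55 with 1264 ± 435 CPM, between the red cell miRNA miR-451a (1374 ± 446 CPM) and miR-29b-3p (1192 ± 228 CPM). miR-223-5p ranked 93 with 484 ± 226 CPM, between miR-1b-5p (506 ± 61.4 CPM) and miR-339-5p (484 ± 80.6 CPM), and these too overlapped.

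All 4 arms had lower mean CPM after MI, and none passed the test over all miRNAs. miR-223-3p had 8047 and 10751 CPM in the MI libraries, against 14063 and 12689 CPM in the sham libraries. Both MI libraries lay below both sham libraries, and the MI libraries differed from each other by more than the sham libraries did. The log2 fold change was -0.50 (SE 0.14), or 1.41-fold lower, with an adjusted p = 0.260 in edgeR's quasi-likelihood test.

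miR-223-5p, the minor strand, was counted with 53 and 48 UMIs in the MI libraries, against 228 and 118 UMIs in the sham libraries. Per 1e6 this gave 242 (Poisson 95% bounds, exact, 181 and 317) and 355 CPM (262 and 470) after MI, against 605 (529 and 689) and 735 CPM (609 and 881) after sham surgery. The groups did not overlap, and neither did the intervals, which cover counting error only. The log2 fold change was -1.16 (SE 0.26), or 2.23-fold lower (edgeR, adjusted p = 0.146), and 15 of 267 tested miRNAs had a smaller p. Counted as reads, its log2 fold change was -1.81 (edgeR, adjusted p = 0.235). Without the low-count filter it passed, at a log2 fold change of -1.22 and an adjusted p of 0.0351, in a fit of 530 miRNAs whose median log2 fold change was -0.39.

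miR-142a-3p, the most abundant of the 4, had 11664 and 12126 CPM in the MI libraries, against 15357 and 13119 CPM in the sham libraries. The groups did not overlap, but sham replicate 2 was closer to the MI libraries than to sham replicate 1. Its log2 fold change was -0.24 (SE 0.14, edgeR, adjusted p = 0.600). miR-142a-5p had 836 and 1190 CPM in the MI libraries, against 1870 and 1159 CPM in the sham libraries. Here the groups overlapped in CPM, with sham replicate 2 between the 2 MI libraries and sham replicate 1 above all others. After the TMM scaling of the edgeR fit, values were 901 and 1121 in the MI libraries, against 1865 and 1144 in the sham libraries. On that scale the groups did not overlap, by a narrow gap. Its log2 fold change was -0.58 (SE 0.30, edgeR, adjusted p = 0.529), and without sham replicate 1 it was -0.24 (adjusted p = 0.833, where the lone sham library is assumed to vary like the MI libraries).

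**Figure D1:**
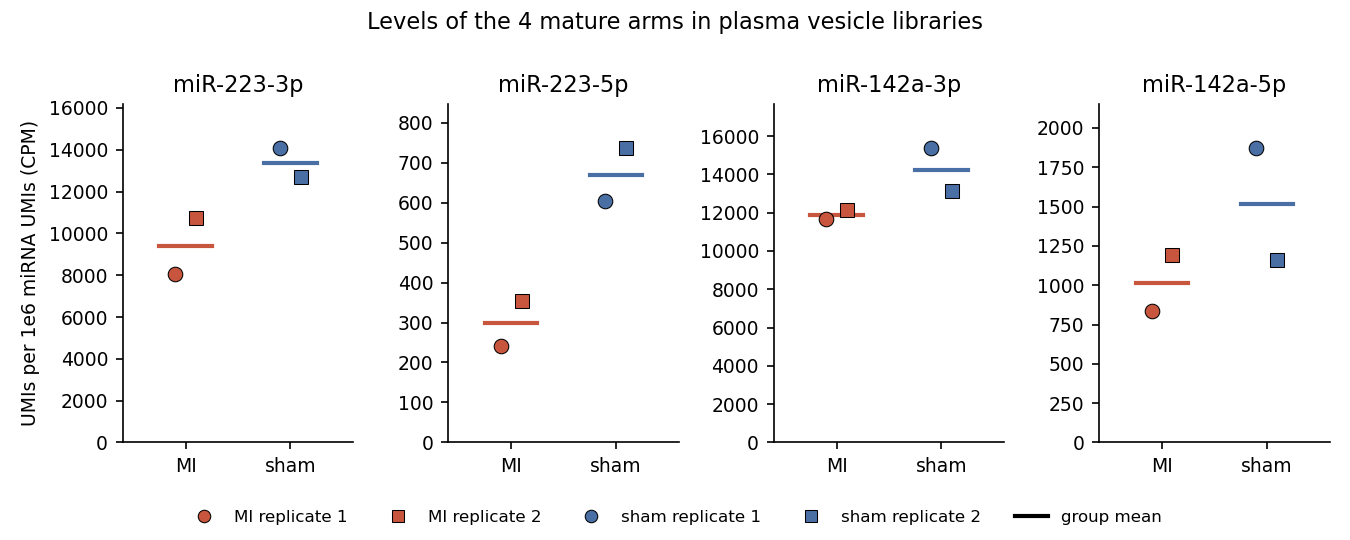
Levels of the 4 arms in each library, in UMIs per 1e6 miRNA UMIs on axes that start at 0, with MI libraries left and sham libraries right (circles replicate 1, squares replicate 2, lines group means of 2). The MI points of miR-223-3p, miR-223-5p and miR-142a-3p lie below both sham points, while those of miR-142a-5p overlap with the sham points.

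Set against all miRNAs, 0 of the 4 members were past an adjusted p of 0.05 in edgeR, where 6 of 267 tested miRNAs (2.25%) were, 4 of them higher (1.5%) and 2 lower (0.749%) after MI. At an unadjusted p under 0.05 there were 2 of 4 members, both lower, beside 23 of 267 miRNAs (8.61%) in that direction and 39 (14.6%) in either. DESeq2 called 0 of the 4 members, beside 14 of 267 miRNAs (5.24%). At an unadjusted p under 0.05 it gave 1 member, miR-223-3p, which was lower, beside 17 of 267 miRNAs (6.37%) in that direction. Groups did not overlap in CPM for 3 of 4 members, lower after MI, against 26.6% of tested miRNAs in the same direction and 21.7% in the other. After TMM scaling miR-142a-5p did not overlap either, and the share of all miRNAs was not counted on that scale. The log2 fold change was below 0 for 4 of 4 members and for 50.6% of tested miRNAs. The median log2 fold change over all tested miRNAs was -0.01. The split of calls was 4 higher and 4 lower with DESeq2 size factors, 5 and 5 with library size alone, and 3 and 3 with library size over all RNA classes, and no member was among them.

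**Figure D2:**
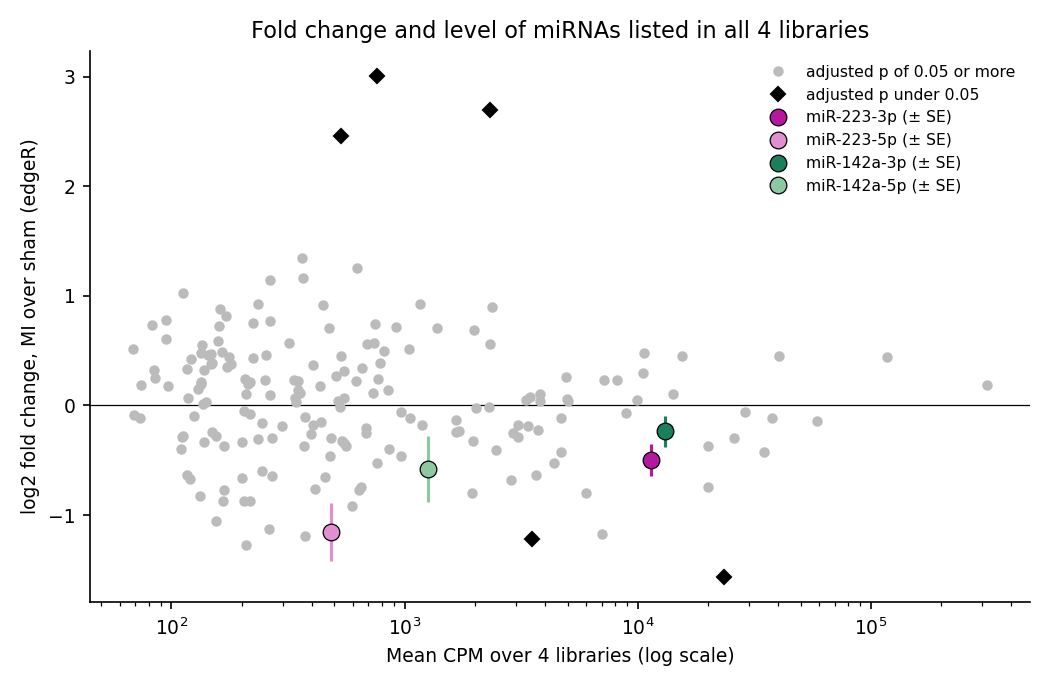
Log2 fold change of MI over sham (edgeR) against mean CPM on a log axis for the 189 miRNAs listed in all 4 libraries, with the 4 members coloured (bars ± SE) and the 5 drawn miRNAs past an adjusted p of 0.05 as black diamonds. All 4 members lie below 0, from -0.24 for miR-142a-3p to -1.16 for miR-223-5p, among other miRNAs of similar level and fold.

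CPM depend on what else is in a library, and the miRNAs of the red cell list took a larger share of the MI libraries. All 10 tested members of the red cell list had log2 fold changes above 0 (median 0.45), none past the threshold. Both arms of miR-486a and of miR-486b are among the 10, at 0.44 to 0.48. Whether these entries count separate molecules was not tested. The values ranged from 0.03 for miR-144-3p, whose groups overlapped, to 0.88 for miR-144-5p. The 2 most abundant on the list were miR-16-5p, with 332546 ± 8017 CPM in MI and 298042 ± 23657 CPM in sham libraries, and miR-486b-5p, with 133056 ± 18434 and 100634 ± 6665 CPM (SD, n = 2 each). Per 1e6 miRNA UMIs outside that list, miR-223-3p had 18898 and 23740 UMIs in the MI libraries, against 27137 and 23496 in the sham libraries. The groups overlapped on this scale, since MI replicate 2 was above sham replicate 2. miR-142a-3p had 27392 and 26775 UMIs in the MI libraries, against 29635 and 24293 in the sham libraries, so both MI libraries lay between the sham libraries. miR-223-5p kept apart, with 568 and 783 UMIs in the MI libraries, against 1167 and 1362 in the sham libraries.

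With that library size in the edgeR fit, the log2 fold change was -0.25 for miR-223-3p (adjusted p = 0.589), -0.91 for miR-223-5p (0.244), -0.33 for miR-142a-5p (0.689) and 0.01 for miR-142a-3p (0.993). The last turned its sign. This scaling moved the median of all miRNAs up by 0.23, so the distances of the members from the median stayed close to those on the first scale.

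The ratio of the 2 hairpins does not depend on the scaling, and it asked whether the myeloid hairpin moved apart from the pan-leukocyte one. With both arms summed, the log2 ratio of miR-223 to miR-142a was -0.59 and -0.26 in the MI libraries, against -0.23 and -0.09 in the sham libraries. In linear terms there were 0.663 and 0.834 miR-223 UMIs for each miR-142a UMI after MI, against 0.851 and 0.940 after sham surgery. miR-223 was thus the less abundant hairpin in every library. MI replicate 1 stood apart, and the gap between MI replicate 2 and sham replicate 1 was narrow. The mean difference, MI minus sham, was -0.27 on the log2 scale (exact permutation test over libraries, two-sided, p = 0.333, the smallest that 2 against 2 allows). It was -0.10 without MI replicate 1 and -0.43 without MI replicate 2.

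The 3p arms alone gave the same difference of -0.27, and the 5p arms alone gave -0.62. The 5p value came with a wide spread in sham, where the linear ratio of miR-223-5p to miR-142a-5p was 0.323 and 0.634, against 0.290 and 0.298 in the MI libraries.

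The minor arm of miR-223 made up a smaller part of its hairpin after MI. miR-223-5p was 2.92% of miR-223 UMIs (95% exact binomial interval 2.19 to 3.80) and 3.19% (2.36 to 4.21) in the MI libraries, against 4.12% (3.61 to 4.68) and 5.48% (4.56 to 6.52) in the sham libraries. The shares did not overlap between groups, though the intervals of both MI libraries reached into that of sham replicate 1. The log2 ratio of the 3p to the 5p arm was 5.06 and 4.92 in the MI libraries, against 4.54 and 4.11 in the sham libraries. The difference was 0.66 (exact permutation test, two-sided, p = 0.333, the smallest possible), and it ranged from 0.45 to 0.88 when 1 library was left out. In reads it was 1.24.

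The arm shares of miR-142a overlapped between the groups. miR-142a-5p was 6.69% of miR-142a UMIs (5.78 to 7.69) and 8.93% (7.66 to 10.3) in the MI libraries, against 10.9% (10.1 to 11.6) and 8.12% (7.03 to 9.31) in the sham libraries. Its log2 ratio of 3p to 5p was 3.80 and 3.35 in the MI libraries, against 3.04 and 3.50 in the sham libraries. The difference of 0.31 (exact permutation test, two-sided, p = 0.667) was 0.08 without MI replicate 1 and likewise 0.08 without sham replicate 1. Both arms were listed in all 4 libraries for 21 hairpins. In 4 of these the major arm gained on the minor arm without overlap after MI, and in 4 it lost. The median difference over the 21 was 0.05, and miR-223 had the third highest and miR-142a the fifth highest.

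**Figure D3:**
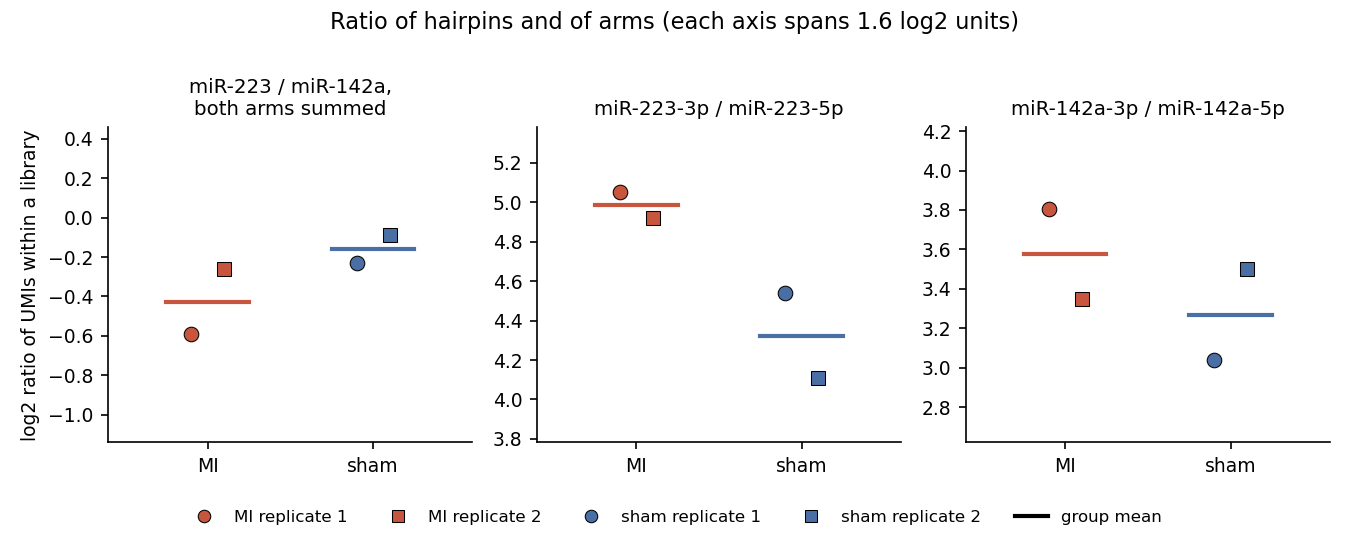
Log2 ratio of UMIs within each library for the 2 hairpins (both arms summed) and for the 3p to 5p arm of each hairpin, MI libraries left and sham libraries right (circles replicate 1, squares replicate 2, lines group means of 2). The miR-223 arm ratio is higher in both MI libraries (5.06 and 4.92) than in both sham libraries (4.54 and 4.11), the hairpin ratio is lower after MI by a narrow gap, and the miR-142a arm ratio overlaps.

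Reads per UMI, the number of times a captured molecule was sequenced on average, differed between the arms. miR-223-3p had 12.6 and 13.0 reads per UMI in the MI libraries, against 15.6 and 13.2 in the sham libraries, and miR-142a-3p had 13.2 and 13.4, against 16.2 and 13.4. Both exceeded, in each library, the median over the 189 miRNAs listed in every library, which was 11.8 and 12.1 in the MI libraries, against 14.1 and 11.9 in the sham libraries. miR-142a-5p had 10.7 and 11.0 reads per UMI in the MI libraries, against 11.2 and 9.91 in the sham libraries. miR-223-5p was lower throughout, with 6.47 and 4.02 in the MI libraries, against 7.89 and 9.18 in the sham libraries. The difference of miR-223-5p was larger in reads than in UMIs, as given above. The part that reads per UMI play in its difference was not tested.

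miR-142b stood out among the neighbours of miR-142a. It was counted with 325 and 208 UMIs in the MI libraries, against 687 and 291 UMIs in the sham libraries. For each miR-142a-5p UMI these were 1.78 and 1.29 UMIs in the MI libraries, against 0.974 and 1.57 in the sham libraries. The opposite strand thus had more UMIs than the minor strand in every library but sham replicate 1. In reads it had fewer in every library. miR-142a-5p had 1964 and 1776 reads in the MI libraries, against 7896 and 1844 in the sham libraries. miR-142b had 592 and 432 reads in the MI libraries, against 1871 and 518 in the sham libraries. It had only 1.82 and 2.08 reads per UMI after MI, against 2.72 and 1.78 after sham surgery. All 20 of its bases pair without a mismatch with bases 4 to 23 of miR-142a-3p, since both are annotated at the same positions on opposite strands. For each miR-142a-3p UMI there were 0.127 and 0.127 miR-142b UMIs in the MI libraries, against 0.119 and 0.138 in the sham libraries. This ratio overlapped between the groups, with a log2 difference of -0.01 (exact permutation test, two-sided, p = 1). Its own log2 fold change was -0.24 (SE 0.15, edgeR, adjusted p = 0.621), the same to 2 decimals as that of miR-142a-3p. Counted as reads, the log2 fold change was -0.32 (SE 0.37) for miR-142b and -0.26 (SE 0.16) for miR-142a-3p.

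miR-142b also resembles miR-142a-5p. Over 18 aligned bases 16 are the same, and the differences are A11G and G14A (the miR-142a-5p base, its position from the 5′ end, and the miR-142b base). The sources used here do not say how the counting assigned reads between such names. With miR-142b added to the 5p arm, the difference of the miR-142a arm ratio was 0.14 in place of 0.31, and the groups then did not overlap (exact permutation test, two-sided, p = 0.333). This alternative was chosen after seeing the data.

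**Figure D4:**
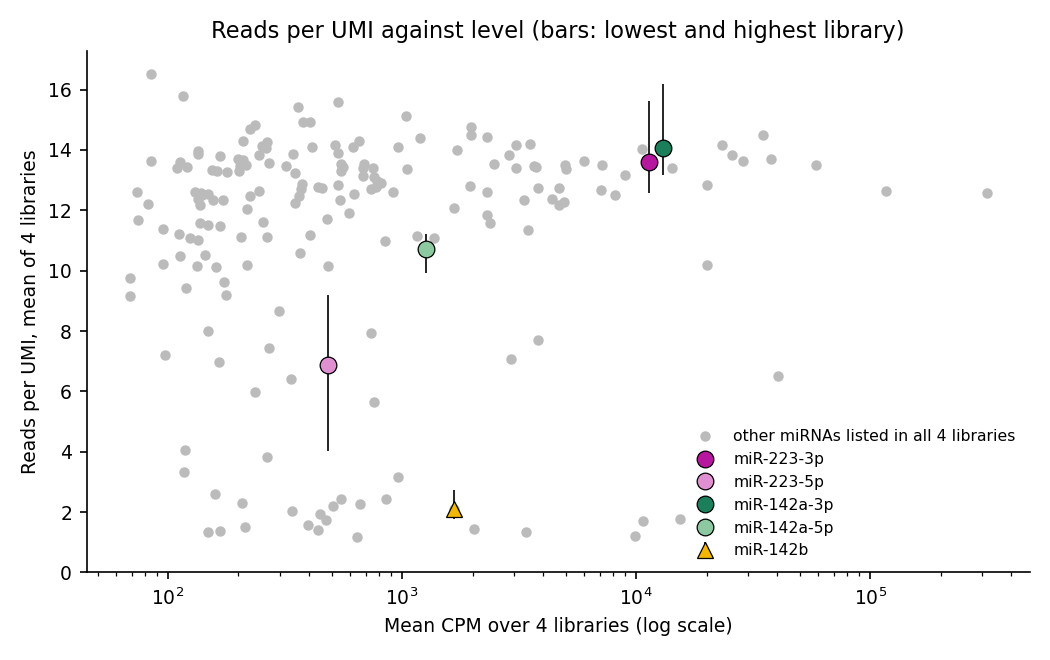
Mean reads per UMI over the 4 libraries against mean CPM on a log axis for the 189 miRNAs listed in every library, with the 4 members and miR-142b marked (bars: lowest and highest library). The 3p arms lie above the median of 12.6, at 13.6 for miR-223-3p and 14.1 for miR-142a-3p, miR-223-5p lies below it at 6.89, and miR-142b at 2.10.

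The miRNAs whose levels over the 4 libraries were most like those of the 3p arms were found by Euclidean distance of centred log2 CPM among 178 other miRNAs with a mean of at least 100 CPM. Nearest to miR-223-3p was the lymphocyte miRNA miR-150-5p (distance 0.12), with 3549 and 4397 CPM in the MI libraries, against 5509 and 5279 CPM in the sham libraries. It was followed by miR-3074-5p (0.16), miR-99b-5p (0.18), miR-700-5p (0.24) and the joint entry let-7a-1-3p/let-7c-2-3p (0.26). Nearest to miR-142a-3p were miR-221-3p (0.07), miR-26b-5p (0.08), miR-192-5p (0.13), let-7b-3p (0.14) and let-7k (0.14). miR-142a-3p was only number 18 in likeness to miR-223-3p (distance 0.37). The 4 libraries share their scaling, so these distances are a description with no test.

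Lists of other blood cell miRNAs give the setting of the members. Of the 13 names on a list of further myeloid miRNAs 9 were tested. Log2 fold changes were below 0 for 7 of the 9 (median -0.63), beside 50.6% of all tested miRNAs. Of the 9, 1 was lower past the threshold and none was higher. The 1 past the threshold was miR-146a-5p, a brake on NF-κB signalling, with 2000 and 2172 CPM in the MI libraries, against 4811 and 5067 CPM in the sham libraries (edgeR, adjusted p = 0.0186). Abundant members were also miR-24-3p, with 2836 and 2823 CPM in the MI libraries, against 4660 and 4269 CPM in the sham libraries (adjusted p = 0.146), and miR-23a-3p, with 3877 and 2926 CPM, against 4390 and 3771 CPM (adjusted p = 0.834). Log2 fold changes above 0 were those of miR-155-5p, at 0.02 (edgeR, adjusted p = 0.982), and miR-27a-3p, at 0.14 (adjusted p = 0.902). On the lymphoid list 4 of 6 names were tested, none passed and 3 were below 0 (median -0.80). Its most abundant members were miR-342-3p, with 4307 and 4249 CPM in the MI libraries, against 8830 and 10857 CPM in the sham libraries (adjusted p = 0.0503), and miR-150-5p (adjusted p = 0.266). miR-29c-3p went the other way, with 699 and 1057 CPM in the MI libraries, against 334 and 405 CPM in the sham libraries. Its log2 fold change was 1.26 (edgeR, adjusted p = 0.127).

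On the platelet and endothelial list 8 of 8 names were tested, none passed, and 5 were below 0 (median -0.03). miR-191-5p, found in platelets and many other cells, had 14281 and 15332 CPM in the MI libraries, against 25953 and 24462 CPM in the sham libraries (edgeR, adjusted p = 0.0691). miR-126a-3p had 13359 and 15931 CPM in the MI libraries, against 15426 and 12209 CPM in the sham libraries (adjusted p = 0.895), so its groups overlapped.

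Ratios to the summed level of each list placed the 2 hairpins differently. miR-142a had 1.03 and 1.14 UMIs for each UMI of the further myeloid list in the MI libraries, against 0.888 and 0.799 in the sham libraries, so it was higher relative to that list after MI. For each UMI of the lymphoid list it had 1.43 and 1.37 in the MI libraries, against 1.16 and 0.855 in the sham libraries. miR-223 overlapped between groups against both lists, with 0.683 and 0.949 UMIs per myeloid UMI in the MI libraries, against 0.756 and 0.751 in the sham libraries. Per UMI of the platelet and endothelial list miR-223 had 0.266 and 0.318 in the MI libraries, against 0.323 and 0.334 in the sham libraries, and miR-142a had 0.401 and 0.382, against 0.380 and 0.355. Neither hairpin was lower against every list, while both were lower against the red cell list, where miR-223 had 0.0144 and 0.0203 UMIs per red cell UMI in the MI libraries, against 0.0304 and 0.0292 in the sham libraries, and miR-142a had 0.0218 and 0.0243, against 0.0358 and 0.0310. These ratios were chosen after seeing the data and were not tested, and the part of the red cell miRNAs in the lower CPM of the members was not tested.

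The fold changes of the members kept their direction under 15 alternatives each, except that of miR-142a-3p with the library size outside the red cell list.

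**Figure D5:**
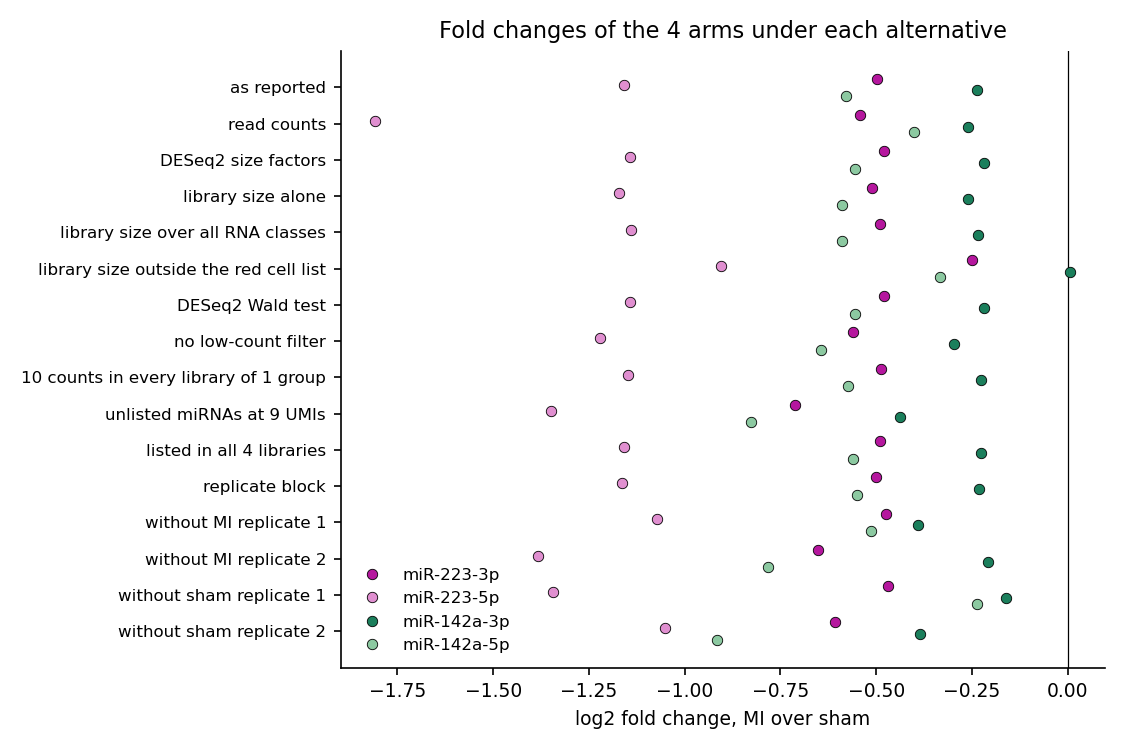
Log2 fold change of MI over sham for the 4 arms as reported (top) and under each of 15 alternatives of counting, scaling, filtering and left-out libraries. miR-223-5p ranges from -1.81 to -0.91, miR-223-3p from -0.71 to -0.25, miR-142a-5p from -0.92 to -0.24 and miR-142a-3p from -0.44 to 0.01.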

How the data were processed

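The deposited files hold, for each of 4 libraries, raw counts of UMIs and of reads per miRNA, per the file headers. The QIAseq miRNA kit was used for library construction, per the labels' protocols. The sources used here name no aligner, counter or genome build. No feature below 10 UMIs was listed, so an unlisted miRNA (0 to 9 UMIs) was entered as 0. CPM are UMIs per 1000000 listed miRNA UMIs, in libraries of 135334 to 377031 such UMIs. The main test on miRNA UMIs was edgeR's quasi-likelihood test (version 4.0.16 under R 4.3.3) after TMM scaling. filterByExpr, told the groups, kept 267 miRNAs (count of 10, total of 15 as its minimums), over which p-values were adjusted by Benjamini-Hochberg at 0.05. For the SE, the size of the log2 fold change was divided by root F. Ratios within a library were compared with an exact permutation test. The fit was tested on simulated data, which had less scatter between libraries than these data and larger changes than the members. That test therefore does not show how the fit performs on changes like those of the members. No replicate pair agreed within sampling noise (chi-square per degree of freedom 10.5 for MI, 16.0 for sham, 189 miRNAs). DESeq2 1.42.0 and the scalings, filters and left-out libraries of the closing section were alternatives.

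The members, lists and alternatives were chosen with earlier results of these data known. Named miRNAs were the members, miR-142b, the neighbours in level, the 5 nearest profiles of each 3p arm, and the 2 most abundant and any called miRNAs of each list. Further members of the red cell, further myeloid and lymphoid lists were named, after their values were seen, to show the spread within a list.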

Additional observations from a re-analysis of the deposited data

How the results depend on the processing

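The directions of miR-223-3p, miR-223-5p and miR-142a-5p held in 15 of 15 alternatives, and that of miR-142a-3p in 14. With the library size outside the red cell list the log2 fold change of miR-142a-3p was 0.01 (0.0060). Without the low-count filter miR-223-5p passed, at -1.22 (edgeR, adjusted p = 0.0351), a filter that changes the number of miRNAs tested to 530. Over the other 14 alternatives its adjusted p stayed above 0.05 and reached 0.535, and over the 15 of miR-223-3p the adjusted p was 0.0940 to 0.589. Leaving out 1 library leaves its group with a single one, which is assumed to vary like the libraries of the other group. It gave 0 to 13 miRNAs higher and 0 to 12 lower, with none without sham replicate 1, the deepest library, and the members' log2 fold changes were -0.65 to -0.47 for miR-223-3p, -1.38 to -1.05 for miR-223-5p, -0.39 to -0.16 for miR-142a-3p and -0.92 to -0.24 for miR-142a-5p. The count of lower miRNAs, 2 as reported, was 4 with DESeq2 size factors, 5 with library size alone, 7 with the DESeq2 test, 12 without the filter, 5 with unlisted miRNAs at 9 UMIs and 8 with miRNAs listed in all 4 libraries. The count of higher miRNAs, 4 as reported, was 7 with the DESeq2 test and 8 without the filter. The difference of the hairpin ratio was -0.62 with the 5p arms alone, and ranged from -0.43 to -0.10 when 1 library was left out. The difference of the miR-223 arm ratio was 1.24 in reads. The cause of these shifts was not tested, beyond the number of miRNAs or libraries that an alternative itself sets.

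With the replicate block the log2 fold changes were -0.50 for miR-223-3p, -1.16 for miR-223-5p, -0.23 for miR-142a-3p and -0.55 for miR-142a-5p. The counts were 4 higher and 2 lower, the same numbers as without the block, and no member was among them. Equally numbered libraries deviated together with a correlation of 0.25 over 189 miRNAs, and the labels do not say that a number marks a shared batch. miR-223-5p was counted with no more than 48 to 228 UMIs a library.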

Other observations

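Names other than miR-142b also had few reads per UMI. Of the 189 miRNAs listed in all 4 libraries, 21 had a mean below 3 reads per UMI, where the median was 12.6 and the lower quartile 10.2. The abundant ones among them were miR-486a-3p (mean 15421 CPM, 1.76 reads per UMI), miR-486b-3p (10657 CPM, 1.70), miR-16-2-3p (9927 CPM, 1.20) and let-7b-3p (3395 CPM, 1.35). miR-126b-5p was also among them, at 2.29 reads per UMI and 207 CPM. These names were chosen after their values were seen, and no cause of the low reads per UMI was tested.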
